A study of Schizosaccharomyces pombe with 36 samples.

Results

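The first 15 min of osmotic stress were compared with the unstressed state in 6 libraries of the fission yeast *Schizosaccharomyces pombe* that are labelled *atf21Δ*, made from total RNA with the strand kept. The label stands for a PCR-made deletion of *atf21*, a gene for an ATF/CREB-type transcription factor, although reads of *atf21* were present (values below). The cells had grown in yeast extract medium, and 3 biological replicates were harvested just before sorbitol was added to 1 M (0 min) and 3 after 15 min in it. Sorbitol, a sugar alcohol, draws water out of the cells. The 6 libraries are part of 36, since the series also holds libraries labelled *atf21Δ* at 30, 60, 120 and 180 min and a wild-type (WT) strain at the same 6 times, each with 3 replicates. All 7039 annotated features of the deposited table were taken, of which 5882 reached an RPKM of 1 in over 6 libraries of the series and were tested, including 4873 protein-coding genes and 752 ncRNAs. RPKM is the number of uniquely mapped reads on a feature divided by its length and by the size of the library.

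In fission yeast, osmotic stress activates a cascade of kinases that ends in the stress-activated MAP kinase Sty1. Sty1 enters the nucleus and acts on the transcription factor Atf1, which pairs with its partner Pcr1 and binds sites with the ATF/CREB core. Their targets include enzymes that remove peroxide, chaperones, the phosphatase that switches Sty1 off again and the enzymes that make glycerol, the osmolyte with which the cell balances the medium.

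The 6 libraries held between 9977762 and 17194395 uniquely mapped reads, with a share of rRNA among the reads on features of 37.2% to 44.5% at 0 min and 43.4% to 47.2% at 15 min. No pair of replicates was as close as counting noise alone would leave it (the lowest chi-squared per degree of freedom was 30.3). All changes below were taken after scaling each library by trimmed mean log ratios, and are given as the difference of mean log2(RPKM + 0.5) between 15 and 0 min, which understates the change of features near 0. The scaling factors were 1.01, 1.24 and 1.34 at 0 min and 0.772, 0.928 and 0.903 at 15 min, so they did not overlap between the times, and the part of rRNA share and scaling in the changes was tested only by the alternatives given here and in the closing section. On the RPKM as deposited the median feature was lower at 15 min by 0.43 on the log2 scale, and after scaling the median was −0.01. Each change is therefore relative to that shift, and RPKM values are given as deposited. A feature was called when its Benjamini-Hochberg adjusted p from limma, over all features and the 5 times together, was under 0.05.

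The targeted gene was not silent in the libraries labelled *atf21Δ*. Its RPKM was 0.271, 0.267 and 0.629 at 0 min and 4.01, 3.64 and 5.62 at 15 min, with 6 to 24 reads per library at 0 min and 100 to 144 at 15 min. The groups did not overlap, and the 15 min mean was 11.4-fold that of 0 min on the deposited scale (two-sided exact permutation test, p = 0.10, the smallest p that 3 against 3 libraries allow) and 16.1-fold after scaling. WT libraries had a mean *atf21* RPKM of 0.0929 ± 0.0418 (SD, n = 3) before and 6.25 ± 0.725 after 15 min. The table gives 1 value for the whole span of a gene (chromosome II, 1722231-1724450), so these reads do not show which part of *atf21* they come from. Whether they come from the deleted part or from sequence left beside it cannot be told, so the label could not be checked. This bears on each comparison with WT.

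After 15 min, 758 features (12.9% of the 5882 tested) were called higher and 850 (14.5%) lower than at 0 min. Of these, 175 were higher and 157 lower by more than 2-fold. Protein-coding genes made up 676 of the features called higher and 794 of those called lower, and ncRNAs 51 and 53. The split between the directions depended on the scaling: without scaling there were 153 calls higher, all of them among the 758, and 2020 lower, including each of the 850. Without replicate 2 of 0 min the counts fell to 477 higher and 627 lower.

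The 12 largest rises among protein-coding genes were of stress effectors, of metabolic enzymes and of proteins with little annotation, with log2 changes from 4.25 to 6.45. The largest was of *SPBC660.05* (chromosome II, 202257-203623), which RefSeq annotates as protein wwm3. Its RPKM was 0.953, 0.759 and 1.32 at 0 min and 89.1, 112 and 102 at 15 min (log2 change 6.45, s.e. 0.33, adjusted p = 1.3e-10). Scaled means differed by 137.5-fold (the 12 genes were chosen among those with groups that do not overlap). *SPAC23H3.15c*, annotated as protein Ddr48 after a budding yeast protein induced by DNA damage, had an RPKM of 5.07, 4.84 and 18.4 at 0 min and 464, 368 and 441 at 15 min (log2 change 6.12, s.e. 0.29, adjusted p = 4.5e-11). Replicate 3 of 0 min stood well above the rest of its group. *SPCPB16A4.07*, annotated as protein Smp4, rose from 9.12, 12.4 and 15.3 at 0 min to 431, 434 and 490.5 at 15 min (log2 change 5.62, s.e. 0.12, adjusted p = 1.8e-15), with the smallest s.e. of the 3.

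Regulators and protective enzymes were among the same 12. *pyp2* encodes the tyrosine phosphatase that removes the activating phosphate from Sty1, and its RPKM was 1.62, 1.59 and 2.21 at 0 min and 42.5, 32.4 and 57.7 at 15 min (log2 change 4.64, s.e. 0.23, adjusted p = 7.4e-11). *ctt1*, the catalase gene, went from 12.8, 18.5 and 20.6 at 0 min to 239.8, 232 and 257 at 15 min (log2 change 4.25, s.e. 0.13, adjusted p = 1.8e-13). *srx1* encodes sulfiredoxin, which restores peroxiredoxin after its overoxidation, and had an RPKM of 5.37, 6.52 and 10.9 at 0 min and 113, 114 and 115 at 15 min (log2 change 4.32, s.e. 0.24, adjusted p = 3.0e-10). The 3 libraries of 15 min lay within 1.4 RPKM of each other for *srx1*, while those of 0 min differed by up to 2.03-fold. *cta3*, annotated as a calcium-transporting P-type ATPase, rose from near the floor, 0.273, 0.279 and 0.292 at 0 min to 15.4, 9.70 and 13.2 at 15 min (log2 change 4.35, s.e. 0.24, adjusted p = 4.2e-10), with 13 to 24 reads per library at 0 min. It shares 182 bases with a ncRNA on its own strand.

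The remaining 5 of the 12 were *SPBC21C3.19* (the SBDS family protein Rtc3, log2 change 5.34, s.e. 0.22), *SPACUNK4.17* (a dehydrogenase of the NAD-binding family, 5.34, s.e. 0.26), *SPBC24C6.09c* (a phosphoketolase, 5.04, s.e. 0.33), *SPCC794.04c* (a membrane transporter, 4.88, s.e. 0.20) and *lsd90* (4.48, s.e. 0.25). In each of the 12 genes replicate 3 of 0 min held the highest RPKM of its group, most clearly in *SPBC24C6.09c*, with 0.230, 0.170 and 2.09 at 0 min against 34.7, 20.3 and 29.7 at 15 min. That library was the deepest of the 6 and had the largest scaling factor, so this order on the deposited RPKM need not hold after scaling. Next in rank, outside the 12, was the dehydrogenase gene *SPAC22A12.17c*.

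**Figure D1:**
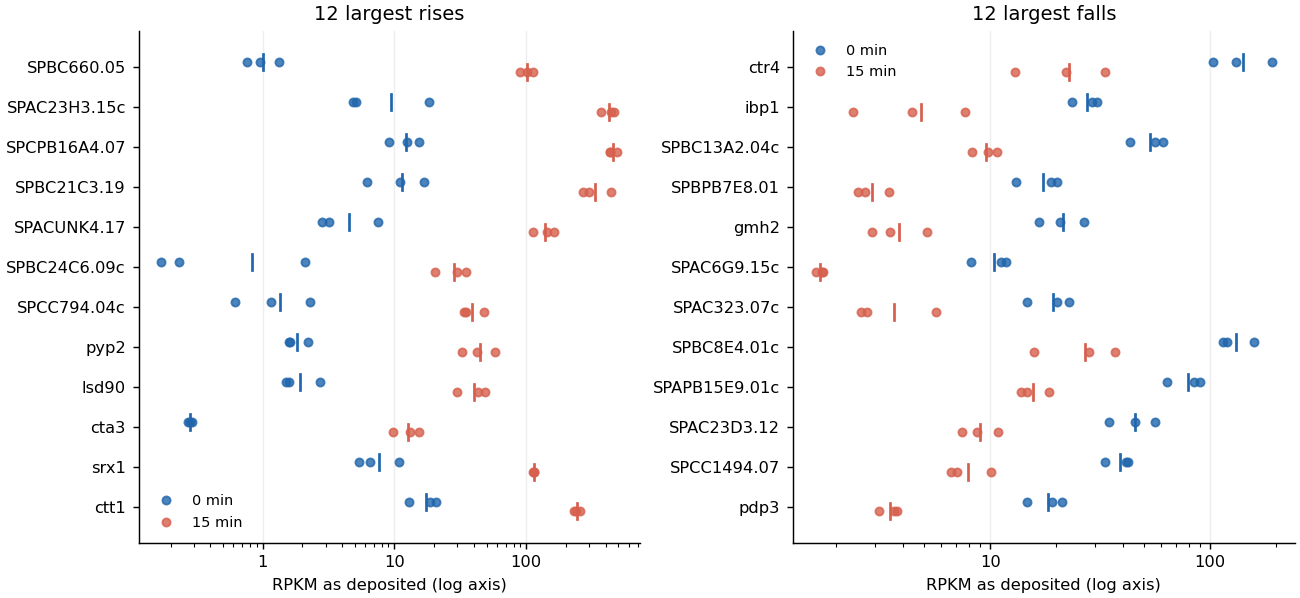
RPKM as deposited, on a log axis, of the 12 protein-coding genes with the largest rise (left) and the 12 with the largest fall (right) in the libraries labelled atf21Δ. Each point is 1 library, blue at 0 min and red at 15 min, and each short vertical line is the mean of 3. Genes were chosen among those whose groups do not overlap, and the rises span a wider range of change (4.25 to 6.45) than the falls (−2.21 to −1.79).

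Of these 12 genes 3, as against 2 of the 12 with the largest falls, as well as *srk1*, *gpd1* and *atf1* described further on, carried the ATF/CREB core TGACGT (or its reverse complement ACGTCA) just ahead of the gene start. The 150 bases before the start are shown for those with the largest rise or a central role, 5′ to 3′ on the strand of the gene, from RefSeq with coordinates of its assembly ASM294v3 and with matches in capitals. The windows are II:202131-202280, plus strand for *SPBC660.05*, III:955080-955229, plus strand for *SPCPB16A4.07*, III:58834-58983, minus strand for *ctt1*, III:1301787-1301936, plus strand for *srk1*, II:4035416-4035565, plus strand for *gpd1* and II:1546067-1546216, plus strand for *atf1*.
SPBC660.05: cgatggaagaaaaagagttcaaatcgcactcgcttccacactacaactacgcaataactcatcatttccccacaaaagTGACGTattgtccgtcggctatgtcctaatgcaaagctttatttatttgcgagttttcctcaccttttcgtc
SPCPB16A4.07: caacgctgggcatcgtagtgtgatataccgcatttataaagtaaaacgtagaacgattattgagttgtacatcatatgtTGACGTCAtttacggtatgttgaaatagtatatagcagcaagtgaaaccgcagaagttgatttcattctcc
ctt1: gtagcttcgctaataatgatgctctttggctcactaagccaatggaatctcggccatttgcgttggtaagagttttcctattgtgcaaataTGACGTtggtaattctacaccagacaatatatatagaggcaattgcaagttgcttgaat
srk1: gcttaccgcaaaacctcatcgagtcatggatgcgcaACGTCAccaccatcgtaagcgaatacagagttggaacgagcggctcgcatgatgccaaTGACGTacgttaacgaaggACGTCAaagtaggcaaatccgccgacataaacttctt
gpd1: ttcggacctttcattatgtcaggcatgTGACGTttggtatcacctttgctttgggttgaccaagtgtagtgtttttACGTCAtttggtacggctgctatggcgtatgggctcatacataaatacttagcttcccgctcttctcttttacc
atf1: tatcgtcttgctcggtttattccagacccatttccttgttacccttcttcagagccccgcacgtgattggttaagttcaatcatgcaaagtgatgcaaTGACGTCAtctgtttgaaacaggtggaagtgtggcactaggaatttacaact

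The first base of the match lay 72 bases before the start in *SPBC660.05* and 59 before it in *ctt1*. *srk1* had 3 matches, beginning 114, 56 and 37 bases before the start, and *gpd1* had 2, at 123 and 74. In *SPCPB16A4.07* and *atf1* the 8 bases in capitals are a palindrome in which TGACGT and ACGTCA overlap, beginning 71 and 52 bases before the start. A match is a description of the letters and not of a bound site. *pyp2*, which rose by 4.64 on the log2 scale, had no match between 250 bases before and 50 after its RefSeq start. The 150 bases before that start (I:5202506-5202655, plus strand) are shown for comparison. They lie inside the span of *pyp2* in the deposited table, which begins at 5202366, and the bases ahead of 5202366 were not searched.
pyp2: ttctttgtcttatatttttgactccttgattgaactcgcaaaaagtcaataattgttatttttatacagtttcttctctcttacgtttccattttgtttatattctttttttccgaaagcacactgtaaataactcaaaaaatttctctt

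Counted over all promoters, the core was found more often ahead of genes that rose. Windows from 250 bases before to 50 after the annotated start were available for 4852 of the 4873 protein-coding genes tested, and 289 of them (5.96%) held TGACGT on either strand, against 5.92% of the 5103 protein-coding genes of the annotation. Among genes called higher by more than 2-fold the share was 47 of 123 (38.2%), and among all 676 called higher it was 15.5%. The share was 4.82% of the 3384 genes not called, 2.65% of the 792 called lower and 3 of 131 called lower by more than 2-fold. In the 123 genes, 58 of 62 matches (93.5%) began within the 150 bases before the start, against 72.7% of the 315 matches of all genes tested.  The heat shock element core GAANNTTC, also counted on both strands, was in 11.03% of all tested promoters and in 8.13% of those of the 123 genes. These shares are descriptions without a test.

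**Figure D2:**
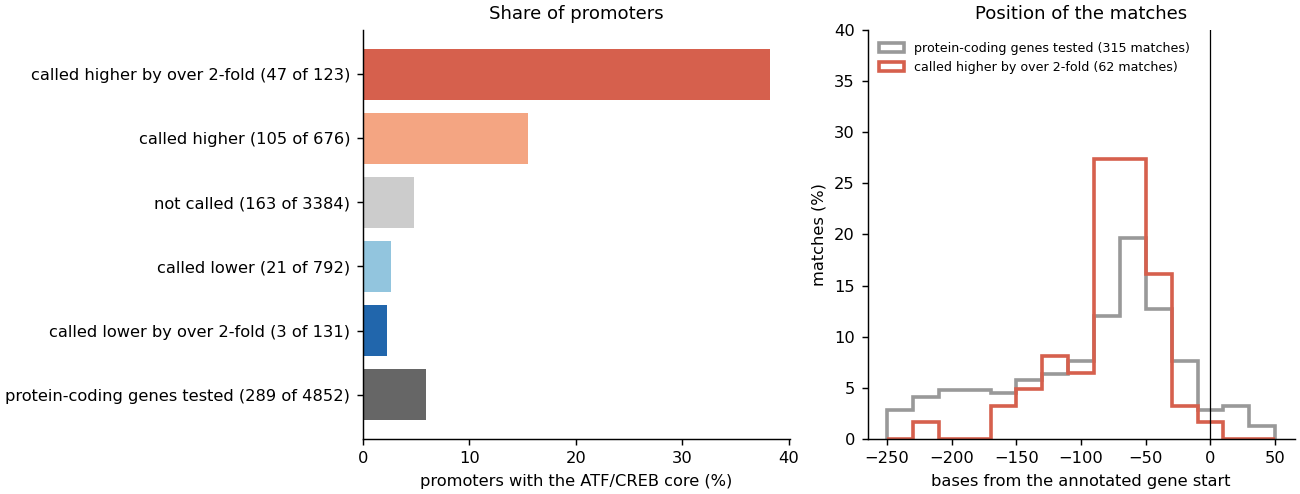
Left, percentage of promoter windows (250 bases before to 50 after the annotated start) that hold the ATF/CREB core on either strand, for protein-coding genes by their call at 15 min, with counts in parentheses. Right, position of the matches relative to the gene start in bins of 20 bases, as a percentage of the matches of all tested genes (grey) and of the genes called higher by more than 2-fold (red), where most matches lie within 150 bases of the start.

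Genes of the upper Sty1 pathway fell more often than they rose. In the list of the MAP kinase cascade and phosphorelay, 1 of 9 genes was called higher and 4 lower (44.4%, against 14.5% of all features), with a median log2 change of −0.24. Without scaling 0 were higher and 7 lower, beside 153 higher and 2020 lower of all 5882 features. Those totals also stand beside the counts without scaling of the other lists. Here and in the paragraphs on other lists, a value alone in parentheses is a log2 change after scaling. The 4 were *wis1*, the MAP kinase kinase above Sty1 (−0.73), *wis4* and *win1*, its MAP kinase kinase kinases (−0.63 and −0.60), and the response regulator *mcs4* (−0.62). *mpr1*, the phosphotransfer protein that signals to Mcs4, rose by 0.79, and without scaling it was not called (0.34). *sty1* itself was not called, with an RPKM of 25.4, 40 and 48.2 at 0 min and 29.1, 33.3 and 30.6 at 15 min and a log2 change of 0.21 (adjusted p = 0.27), and its groups overlapped. On the deposited scale the change of *sty1* was −0.24.

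Most genes that act on Sty1 or just below it rose. In the list of Sty1 phosphatases and downstream kinases 5 of 8 were called higher and none lower, against 12.9% and 14.5% of all features, and without scaling 2 were higher and 1 lower. Beside *pyp2* these were *srk1*, the kinase that binds Sty1 and restrains the entry into mitosis (log2 change 2.76, s.e. 0.14, adjusted p = 1.0e-10), the phosphatases *ptc1* (0.88) and *pyp1* (0.82) and the kinase *cmk2* (0.58). The RPKM of *srk1* was 8.68, 12.2 and 11.9 at 0 min and 54.0, 53.3 and 60.8 at 15 min. No library of one time reached the range of the other. For *ptc1* and *pyp1* the deposited values of the 2 times overlapped.

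Of 10 stress transcription factors 4 (40%) were called higher and 1 (10%) lower, beside 12.9% and 14.5% of all features, and without scaling 3 were higher and 3 lower. *pcr1*, whose product pairs with Atf1, had an RPKM of 3.32, 3.40 and 5.50 at 0 min and 15.6, 16.6 and 24.5 at 15 min (log2 change 2.51, s.e. 0.22, adjusted p = 1.3e-07). *atf1* rose less, from 5.16, 9.33 and 7.47 at 0 min to 15.0, 15.9 and 15.5 at 15 min (log2 change 1.5, s.e. 0.18, adjusted p = 6.5e-06). Neither gene's groups overlapped. *hsf1*, the heat shock factor gene, was called at 0.66, and *atf21* itself at 2.77. The factor called lower was *phx1*, a homeobox protein with a role in stationary phase (−0.69).

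Genes of glycerol and trehalose metabolism were among those that rose. *gpd1*, the glycerol-3-phosphate dehydrogenase that makes the precursor of glycerol, had an RPKM of 231, 277 and 359.9 at 0 min and 699, 767 and 988 at 15 min (log2 change 1.96, s.e. 0.15, adjusted p = 2.8e-08), which is among the highest levels of the stress genes. *gut2*, whose mitochondrial product oxidizes the same precursor, rose more from a lower level (2.61 ± 0.787 to 12.2 ± 1.87 RPKM, SD, n = 3, log2 change 2.46). Of the 6 genes of glycerol metabolism 3 were called higher and none lower (12.9% and 14.5% of all features), but without scaling 2 were higher and 2 lower. The 3 include *dak1* with 0.35 after scaling and −0.10 on the deposited scale. Both *tps1*, the trehalose-6-phosphate synthase (log2 change 1.87, s.e. 0.13, adjusted p = 5.7e-09), and *ntp1*, the neutral trehalase (log2 change 1.78, s.e. 0.12, adjusted p = 6.3e-09), rose, while *tpp1*, the trehalose-phosphate phosphatase, was not called (0.27, adjusted p = 0.092, and −0.18 on the deposited scale). The RPKM of *tps1* was 26.0, 36.8 and 40.1 at 0 min and 85.8, 87.7 and 99.4 at 15 min.

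Among 18 antioxidant enzymes 11 (61.1%) were called higher and 2 lower, against 12.9% and 14.5% of all features, and the median was 0.57. Without scaling 4 were higher and 2 lower with a median of 0.12, and with quantile normalization 6 and 2. After *srx1* and *ctt1* the largest rises were of the glutathione peroxidase gene *gpx1* (83.2 ± 18.3 to 271 ± 11.7 RPKM, SD, n = 3, log2 change 2.18) and the glutathione S-transferase gene *gst3* (1.87). *zwf1*, whose product supplies NADPH, and *trx1*, the thioredoxin gene, rose by 0.79 and 0.84. The 2 called lower were the glutaredoxins *grx3* (−1.28) and *grx4* (−0.65).

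The chaperones were more uneven. *hsp9* rose from an RPKM of 159.5, 184 and 146 at 0 min to 1527, 1295 and 1304 at 15 min (log2 change 3.53, s.e. 0.20, adjusted p = 4.0e-10), reaching the highest level of any stress gene named here. The small heat shock protein gene *hsp16* was not called, with 18.8, 27.2 and 19.5 at 0 min and 24.6, 30.5 and 16.8 at 15 min (log2 change 0.56, s.e. 0.32, adjusted p = 0.25), and its groups overlapped. Of the 24 genes in the list 7 (29.2%) were called higher and none lower, against 12.9% and 14.5% of all features. Without scaling 2 were higher and 2 lower. The median was 0.23 after scaling and −0.22 on the deposited scale. The 7 included the Hsp70 genes *ssa1* (1.44) and *ssa2* (0.57) and the DnaJ gene *psi1* (0.68).

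The 12 largest falls among protein-coding genes lay between −2.21 and −1.79, smaller than any of the 12 largest rises, and 5 of the 12 encode annotated or putative membrane transporters. *ctr4* (chromosome III, 818302-819361), a subunit of the high-affinity copper transporter, had an RPKM of 103, 131 and 190.4 at 0 min and 13, 33.3 and 22.1 at 15 min (log2 change −2.21, s.e. 0.22, adjusted p = 9.9e-07). *SPBC8E4.01c* and *SPAC23D3.12*, both annotated as inorganic phosphate transporters, had 114, 119 and 158 at 0 min and 15.9, 37.0 and 28.2 at 15 min (log2 change −1.86, s.e. 0.24, adjusted p = 1.6e-05) and 34.8, 45.7 and 56.3 at 0 min and 7.44, 8.69 and 10.8 at 15 min (log2 change −1.82, s.e. 0.22, adjusted p = 6.5e-06). For both phosphate transporter genes replicate 1 was the lowest library at each time. The other 2 were *SPBC13A2.04c*, a peptide transporter of the PTR family (−1.97), and *SPAC323.07c*, of the MatE family (−1.87).

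*ibp1*, which encodes a phosphatase of the Cdc25 family, fell from an RPKM of 23.4, 29 and 30.5 at 0 min to 2.37, 7.71 and 4.41 at 15 min (log2 change −2.10, s.e. 0.22, adjusted p = 1.5e-06). It lies on the same strand as *cta3* and begins 466 bases after the annotated end of that gene, so 1 of the largest rises and 1 of the largest falls were of neighbours. The remaining 6 were *gmh2*, a galactosyltransferase gene (−1.91), *SPAPB15E9.01c*, annotated as protein Pfl2 (−1.84), *SPAC6G9.15c* (−1.90), *SPBPB7E8.01* (−1.96), *SPCC1494.07*, annotated as a tRNA methylation protein (−1.80), and *pdp3*, a PWWP domain protein (−1.79). In each of the 12 genes replicate 1 of 0 min held the lowest RPKM of its group as deposited. That library was the shallowest and had the smallest scaling factor of its group, so this order need not hold after scaling. *gmh2*, *SPBC8E4.01c* and *SPAC323.07c* overlap another gene on their own strand by 61, 67 and 76 bases, and reads there may be counted for both genes.

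Several genes of metal uptake fell. In the zinc and copper list 6 of 9 were called lower, against 14.5% of all features, and 1 was called higher. Beside *ctr4* the falls included its partner *ctr5* (−0.37), the copper-responsive factor *cuf1* (−0.74), the Golgi zinc importer *cis4* (−0.90) and *fet4* (−0.82). The metallothionein gene *zym1* rose (1.40, s.e. 0.18). Of 12 genes of iron uptake 4 (33.3%) were called lower, or 7 without scaling, among them the siderophore transporters *str1* (−1.40) and *str3* (−1.13) and the ferric reductase *frp1* (−1.39). The groups of *str3* overlapped before and after scaling (limma adjusted p = 0.048). The 2 called higher were *sib2* (0.69) and the iron-sensing repressor *fep1* (0.47), neither of which was called without scaling. Of 11 cation transporters 2 were called lower (18.2%, near the 14.5% of all features), the potassium transporter genes *trk1* and *trk2* (−0.78 and −0.95), and 1 higher, *cta3*.

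Sugar transporters split. *ght2* rose from an RPKM of 36.2, 45.3 and 58.3 at 0 min to 189, 187 and 234 at 15 min (log2 change 2.59, s.e. 0.11, adjusted p = 8.7e-12), while *ght5*, the high-affinity glucose transporter gene (−0.83), and *ght8* (−0.82) fell. Among 17 genes of nitrogen and amino acid uptake and use 4 (23.5%, beside 14.5% of all features) were called lower, led by the ammonium transporter gene *amt1* (5.94 ± 1.16 to 1.18 ± 0.208 RPKM, SD, n = 3, log2 change −1.56), and 2 (11.8%, beside 12.9%) higher, among them the vacuolar protease gene *isp6* (1.00).

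Genes of cell division were called lower more often than the 14.5% of all features. Among 12 genes of mitotic exit and cell separation 4 (33.3%) fell and none rose, namely the septum glucanases *eng1* (log2 change −1.61, s.e. 0.18, adjusted p = 4.9e-06) and *agn1* (−1.21), the activator of the anaphase-promoting complex *slp1* (−1.12) and *adg3* (−0.73). The RPKM of *eng1* was 51.4, 80.4 and 96.8 at 0 min and 12.4, 23.8 and 17.6 at 15 min, without overlap. Of 12 cell cycle regulators 4 (33.3%) fell, namely the B-type cyclins *cig1* (−1.35) and *cig2* (−0.72) and the kinases *pom1* (−0.71) and *wee1* (−0.67), and 2 rose, the kinase *cdr1* (0.70) and the inhibitor *rum1* (0.50), whereas without scaling 10 were lower and 0 higher. Among S-phase genes under the factor MBF 6 of 15 (40%) fell, led by *tos4* (−0.94), and 2 rose, or 6 and 0 without scaling. Of all 5882 features 2020 were called lower and 153 higher without scaling, so the unscaled counts are to be read beside those. Of 19 mating genes tested 4 fell (21.1%, not far from 14.5%) and none rose, including *ste11*, the master regulator of sexual differentiation (−1.07), and the pheromone precursor gene *mfm2* (−1.25), although mean RPKM was under 3 for both already at 0 min.

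Some genes whose names come from meiosis moved too. Of 134 *mug* and *meu* genes 106 were tested, and 16 were called higher and 13 lower, with a median of −0.04. The largest rises were of *mug66*, which RefSeq annotates as the autophagy protein Atg101 (1.80), *mug143* (1.5) and *mug147* (1.38), and the largest fall was of *mug110* (−1.27). Shares called in this list were 15.1% higher and 12.3% lower, near those of all features.

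Highly expressed housekeeping genes shared a small positive change that rested on the scaling. The counts below stand beside 12.9% called higher and 14.5% called lower over all features after scaling. Of 136 cytosolic ribosomal protein genes 61 were called higher and none lower, with a median of 0.40, but on the deposited scale the median was −0.06, none was called higher and 1 lower, and with quantile normalization it was −0.09 with none higher and 6 lower. The largest, *rpl801*, had an RPKM of 1094, 985 and 1240.0 at 0 min and 1199, 1138 and 1467 at 15 min (log2 change 0.65, s.e. 0.19, adjusted p = 0.023), and the deposited values of the 2 times overlapped. Proteasome subunits (15 of 27 higher, none lower, median 0.34 after scaling and −0.12 as deposited) and the nuclear genes of the respiratory chain and ATP synthase (22 of 40 higher, 1 lower, median 0.37 and −0.07) had the same pattern. So did glycolysis (6 of 15 higher, 1 lower, 0.44 and −0.01), amino acid synthesis (15 of 36 higher, 2 lower, 0.25 and −0.21) and sterol and fatty acid synthesis (6 of 20 higher, 1 lower, 0.28 and −0.17). On the deposited scale 0 members of these 3 lists were called higher. Genes of ribosome biogenesis stood lower, with 4 of 48 called higher, 2 lower and a median of 0.07 after scaling and −0.38 as deposited.

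The promoters of the ribosomal protein genes are marked by a different motif, the HomolD box CAGTCACA. It was on either strand in 87 of 136 of them (63.97%), against 2.82% of all tested protein-coding genes, while TGACGT was in 2.21% of them. The 150 bases before the start of *rpl801* (I:4251438-4251587, minus strand) are shown with the box in capitals, beginning 58 bases before the start.
rpl801: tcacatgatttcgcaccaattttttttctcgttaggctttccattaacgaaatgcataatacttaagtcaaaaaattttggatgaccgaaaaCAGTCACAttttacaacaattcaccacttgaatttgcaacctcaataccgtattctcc

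Change at 15 min was related to level and length across genes. The 4873 protein-coding genes were split into 4 bins of nearly equal size by mean scaled RPKM over the 18 libraries labelled *atf21Δ*. That mean includes the 15 min libraries and later times, so a rise itself moves a gene towards a higher bin. Part of the relation with level can thus be built in. In the lowest bin (scaled RPKM up to 6.66) 4.59% were called higher and 21.6% lower, with a median of −0.24. In the highest bin (from 30.6) the shares were 33.7% and 3.78%, with a median of 0.26 after scaling and −0.20 as deposited. In 4 bins by span, 25.4% of the longest genes (from 2737 bases) and 8.61% of the shortest (up to 1319 bases) were called lower. Level and length were not separated from each other. In the WT libraries, which share no sample with these, the medians of the genes in the lowest and highest level bins were −0.29 and 0.23. The bins were the same ones and were not drawn anew from WT levels.

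**Figure D3:**
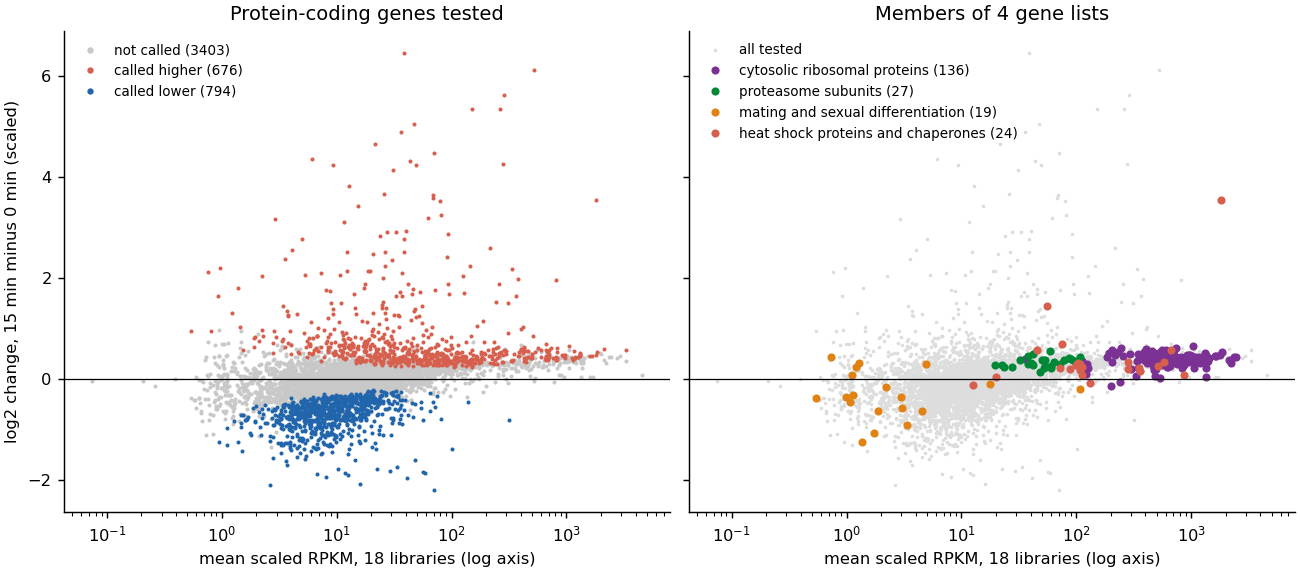
Log2 change from 0 to 15 min after scaling (y) against the mean scaled RPKM of the 18 libraries labelled atf21Δ on a log axis (x), 1 point per protein-coding gene tested. Left, genes called higher (red, 676), lower (blue, 794) and not called (grey). Right, the same axes with 4 gene lists, in which the ribosomal proteins sit at the high end just above 0, with a median of 0.40 that is −0.06 as deposited, and the mating genes at the low end, with a median of −0.36.

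**Figure D4:**
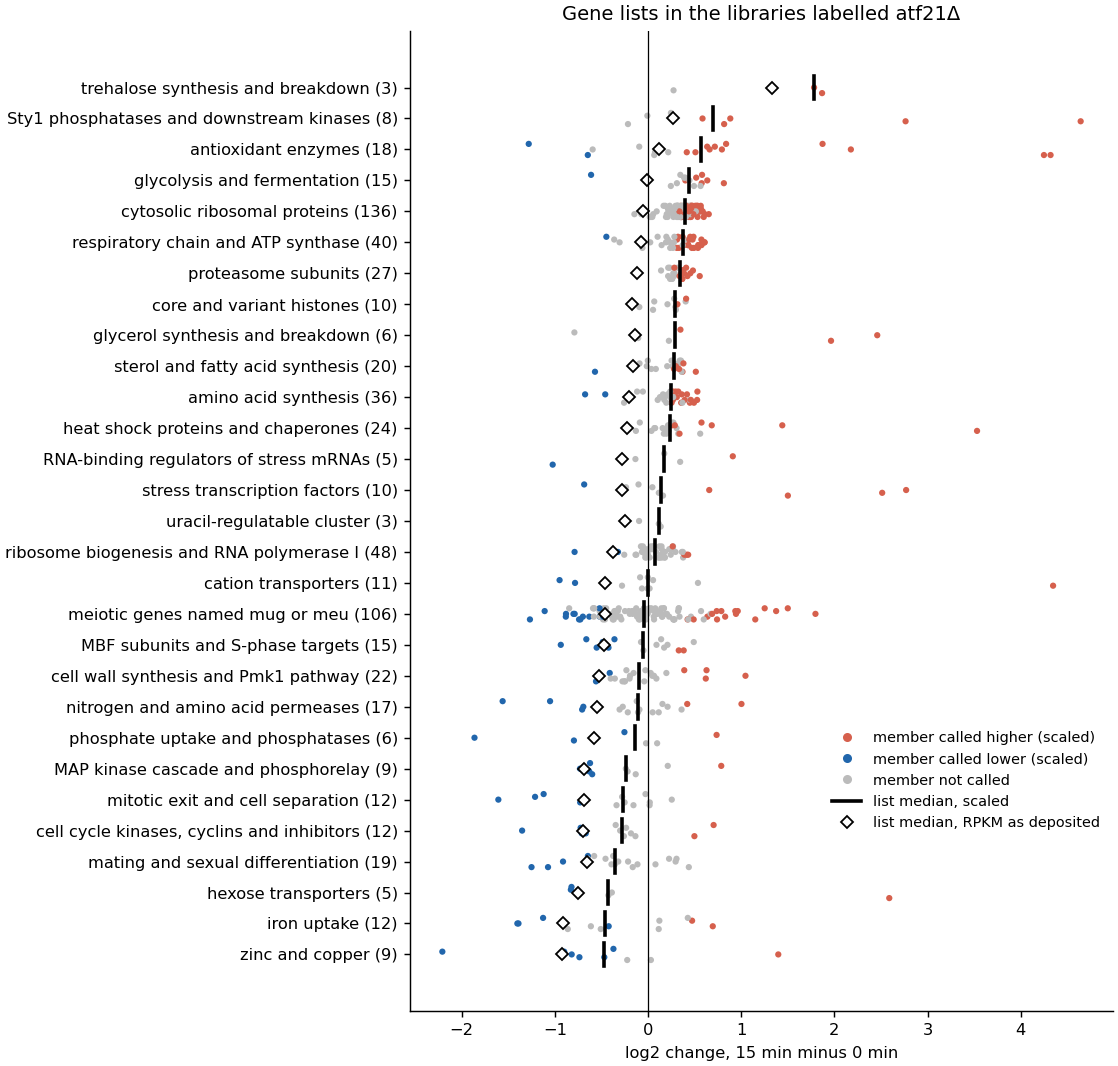
Log2 change from 0 to 15 min of the members of the 29 gene lists, with the number of genes tested in parentheses. Each point is 1 gene after scaling (red called higher, blue called lower, grey not called), the black line is the list's median after scaling and the open diamond its median on the RPKM as deposited. The median of the respiratory list, for example, is 0.37 after scaling and −0.07 as deposited.

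The remaining lists had members called in both directions or few calls. Over all features 12.9% were called higher and 14.5% lower. Of 10 histone genes 2 (20%) were called higher, whereas without scaling 0 were higher and 1 lower. Of 22 cell wall genes 4 (18.2%) were higher and 2 (9.09%) lower, with *gas2* at 1.05, but without scaling 1 was higher and 10 lower. Of 6 phosphate genes 1 (16.7%) was higher and 3 (50%) lower, or 0 and 3 without scaling. Of 5 RNA-binding regulators of stress mRNAs, *vip1* rose (0.91) and *csx1*, which stabilizes *atf1* mRNA in oxidative stress, fell (log2 change −1.02, s.e. 0.16, adjusted p = 1.2e-04). None of the 3 genes of the uracil-regulatable cluster was called at 15 min.

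Of 174 tRNA features 23 (13.2%, near the 12.9% of all features) were called higher and none lower, with a median of 0.715 after scaling and 0.26 as deposited. On the deposited scale 4 were called higher. Of the 8 mitochondrial protein-coding genes none was called, and their log2 changes lay between −0.08 and 0.17.

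Among the 752 ncRNAs tested, 6.78% were called higher and 7.05% lower, against 12.9% and 14.5% of all features. Of the 104 calls, 60 had fewer than 50 reads on average over the 6 libraries. The largest rises with enough reads were of *SPNCRNA.1165*, with an RPKM of 0, 0.529 and 0.323 at 0 min and 8.68, 8.38 and 9.60 at 15 min (log2 change 3.94, s.e. 0.32, adjusted p = 5.0e-08), *SPNCRNA.828* (2.90), *sme2* and *SPNCRNA.974* (2.71). *sme2* encodes meiRNA, a non-coding RNA of the switch to meiosis, and its RPKM was 4.66, 2.78 and 2.62 at 0 min and 19.6, 18.2 and 17.4 at 15 min (log2 change 2.74, s.e. 0.31, adjusted p = 4.0e-06). These ncRNAs were chosen among those whose groups do not overlap. The largest falls were of *SPNCRNA.756* (−1.44), *SPNCRNA.1118* (−1.16), *SPNCRNA.1469* (−1.09) and *SPNCRNA.1599* (−1.08).

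Antisense ncRNAs were followed opposite the genes that moved. Of the 971 ncRNAs that overlap a protein-coding gene on the other strand by at least 1 base, 492 were tested together with that gene, and 29 were called higher and 29 lower. Opposite the 21 genes called higher by more than 2-fold, 5 ncRNAs (23.8%) were called lower and 4 (19.05%) higher, against 5.89% in each direction over the 492. In all, 23 pairs had both members called, 9 in opposite and 14 in the same direction. The 5 pairs with the gene higher and the ncRNA lower, named here after their values were seen, were *SPACUNK4.17* with *SPNCRNA.857* (−0.56 for the ncRNA), *SPBC24C6.09c* with *SPNCRNA.1505* (−0.64), *cta3* with *SPNCRNA.1374* (−0.79), *SPAC139.05* with *SPNCRNA.706* (−0.80) and *SPCC576.17c* with *SPNCRNA.1263* (−0.66). *SPNCRNA.1505* overlaps all 2612 bases of *SPBC24C6.09c*, and its RPKM was 10.6, 12.6 and 13.4 at 0 min and 5.10, 6.44 and 5.08 at 15 min (log2 change −0.64, s.e. 0.13, adjusted p = 0.0012). That of *SPNCRNA.1374*, which lies wholly opposite *cta3*, was 3.94, 5.23 and 6.01 at 0 min and 1.81, 2.46 and 1.59 at 15 min (log2 change −0.79, s.e. 0.17, adjusted p = 0.0023). In both pairs the ncRNA held more RPKM than the gene at 0 min and less at 15 min. *SPNCRNA.832*, opposite *SPAC23H3.15c*, had a log2 change of 0.01 (adjusted p = 0.98).

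Between 15 and 30 min the response was still moving. Of the 5882 features, 1363 (23.2%) were called higher and 992 (16.9%) lower at 30 than at 15 min by limma with Benjamini-Hochberg adjustment, and on the RPKM as deposited 1340 and 350. This comparison shares the 15 min libraries with the first, so values of the 3 times are given side by side. *SPBC660.05* had a mean RPKM of 1.01 ± 0.284, 101 ± 11.7 and 106 ± 46.5 (SD, n = 3) at 0, 15 and 30 min, with a log2 change of −0.17 from 15 to 30 min (adjusted p = 0.72). *srx1* had 7.60 ± 2.92, 114 ± 0.695 and 83.2 ± 25.3, a fall by 0.66 on the log2 scale after 15 min (adjusted p = 0.035). Of the 12 largest rises 8 were called higher again at 30 than at 15 min and *srx1* alone lower. *ctt1* went on rising, with 17.3 ± 4.05, 243 ± 13 and 1066 ± 129.5 (1.96, adjusted p = 8.8e-09). *atf1* was at 15.5 ± 0.448 and 19.3 ± 3.87 at the 2 later times and was not called (0.13, adjusted p = 0.6).

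The largest rises from 15 to 30 min were of *SPCPB16A4.06c* (3.58), *isp7* (3.46), *urg1* (3.26) and *prl65* (3.19). *isp7*, an oxygenase gene, had first fallen, with mean RPKM of 5.93 ± 2.11, 1.78 ± 0.378 and 28.2 ± 11 at the 3 times. *urg1*, of the uracil-regulatable cluster, was at 1.44 ± 0.567 and 1.26 ± 0.721 before it reached 18.6 ± 9.59. The largest falls were of *SPBC8E4.01c* (−2.59), the iron permease and oxidase genes *fip1* (−2.56) and *fio1* (−2.44), and *fkbp39*, a peptidyl-prolyl isomerase gene (−2.21). *fkbp39* had not been called at 15 min, with 157 ± 30.0, 125 ± 32.8 and 31.2 ± 12.3 RPKM. Other genes that were low at 15 min were higher again at 30 min, such as *SPBC13A2.04c* with 53.4 ± 9.21, 9.57 ± 1.25 and 45.9 ± 20.6 (1.95, adjusted p = 3.4e-06) and *csx1* (1.56, adjusted p = 6.9e-07). Of the 48 ribosome biogenesis genes, 45 were called lower at 30 than at 15 min (median −0.89) and 1 higher. Among the 24 chaperone genes 14 were lower and 3 higher (median −0.27). Over all features 16.9% were lower and 23.2% higher. These list counts are after scaling only, and without scaling fewer features were called lower over this step.

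**Figure D5:**
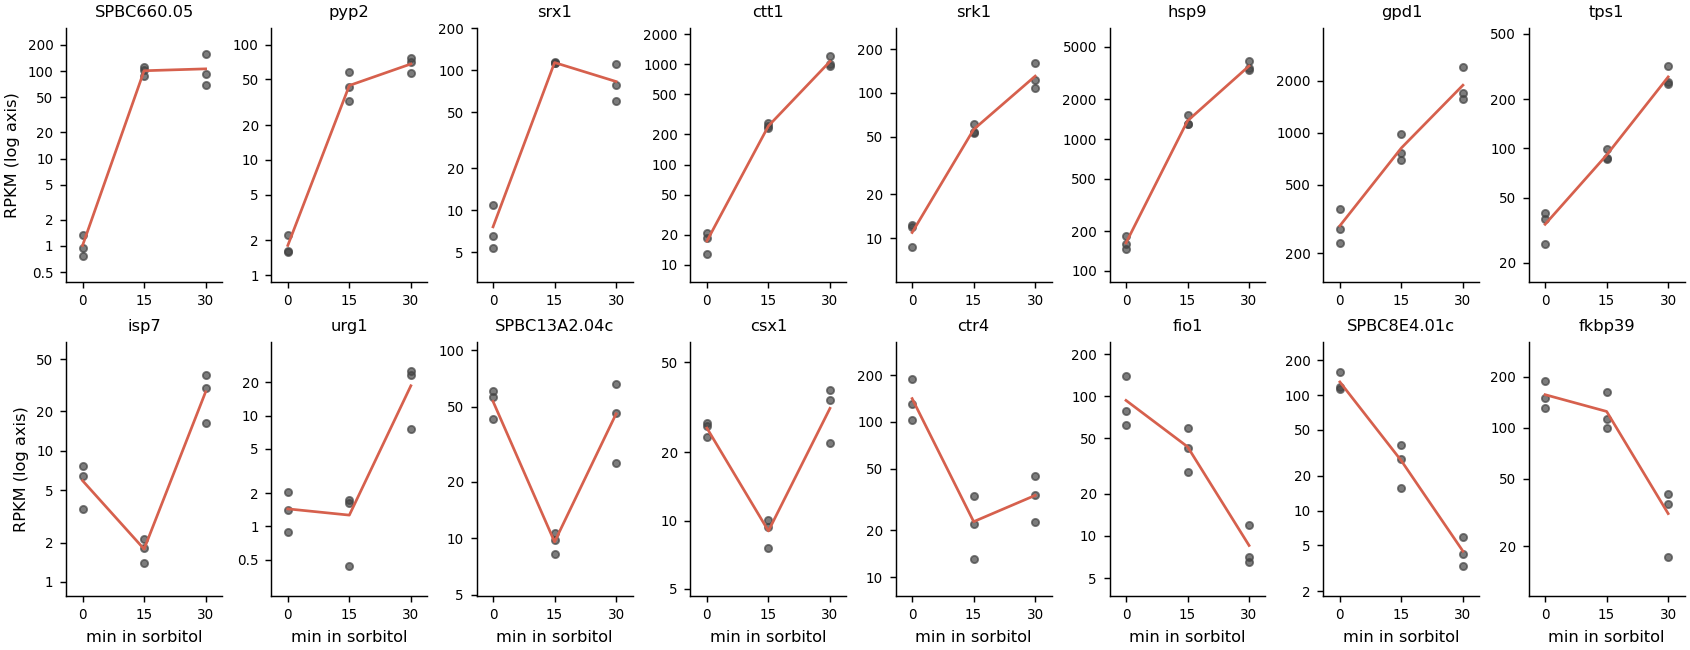
RPKM as deposited, on a log axis, at 0, 15 and 30 min in sorbitol in the libraries labelled atf21Δ, for 16 named genes. Points are single libraries and the line joins the means of 3. Genes of the upper row rise by 15 min, and most go on rising to 30 min (8 of the 12 largest rises were called higher again), while *SPBC660.05* and *srx1* do not. In the lower row *isp7*, *SPBC13A2.04c* and *csx1* dip at 15 min, and *SPBC8E4.01c* falls at both steps.

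The response at 15 min was compared with that of WT through the strain-by-time interaction in 1 limma fit of all 36 libraries. No feature (0.0% of 5882) passed a Benjamini-Hochberg adjusted p of 0.05, the smallest adjusted p being 0.13, and 396 had an unadjusted p under 0.05. With voom on the recovered reads 1 feature passed, *SPCC613.02*, chosen here after its value was seen (change in the libraries labelled *atf21Δ* minus that in WT 0.95, s.e. 0.17, adjusted p = 0.031). Leaving out replicate 2 of WT at 15 min raised the count to 72, with 53 differences above 0 and 19 below, leaving out replicate 1 of 15 min among the libraries labelled *atf21Δ* gave 2 and leaving out replicate 3 of WT at 15 min gave 1. The 12 largest rises had log2 changes of 4.21 to 6.44 in WT, against 4.25 to 6.45, and differences between the strains from −0.66 to 0.30. For the 12 largest falls, WT ranged from −2.44 to −1.68 and the differences from −0.24 to 0.59. *cta3* had the largest difference among the 24 in size, with 5.0 in WT and 4.35 in the mutant-labelled libraries (difference −0.66, s.e. 0.35, adjusted p = 0.76). *cig1* fell by 2.36 in WT and by 1.35 in the mutant-labelled ones (difference 1.01, s.e. 0.33, adjusted p = 0.44), and *atf21* rose by 3.88 and 2.77 (difference −1.11, s.e. 0.31, adjusted p = 0.41). *zym1* had log2 changes of 0.09 in WT and 1.40 in the mutant-labelled libraries, with an s.e. of the difference of 0.83 (adjusted p = 0.83).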

How the data were processed

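RNA from the 36 samples was ribosome-depleted, and per the labels was sequenced as strand-specific reads of 50 bases on a SOLiD instrument. The authors aligned reads with SHRiMP2 to the genome of PomBase release 11, kept reads with 1 locus, counted them by strand over the full span of 7039 features and deposited RPKM, with no scaling between libraries and no pooling. Because reads with several loci were dropped, values of paralogs such as ribosomal protein genes cover their unique sequence alone. Each of 253404 values was a whole number of reads (100.0% within 0.001), so reads were recovered. A read on 1 kb stood for an RPKM of 0.0582 to 0.1002 in the 6 libraries.

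Scaling factors were trimmed means of log ratios without weights, taken over the features tested (30% of ratios and 5% of levels cut off on either side). After addition of 0.5, limma 3.58.1 in R 4.3.3 (trend, two-sided) fitted the 18 libraries labelled *atf21Δ* with time as a factor. The steps were tested on simulated data. The named genes are the 12 largest rises and 12 largest falls of protein-coding genes and the 4 of ncRNAs (called, groups apart, at least 50 reads on average), up to 4 called members per list, 12 stress genes fixed by name, and the 4 largest changes each way from 15 to 30 min. Other list members and the antisense pairs were named after their values were seen. The comparison, the 29 gene lists and the motifs were chosen with earlier results of these data known. The alternatives were no scaling or quantile normalization, a pseudocount of 0.1 or 1, a filter at an RPKM of 5 or none, a replicate block, no trend, voom on recovered reads, the 6 libraries alone, 1 fit of all 36, adjustment over 15 min alone and leaving out each library. Factors from all features were added after seeing the data. Promoters were cut from the RefSeq annotation of ASM294v3 at its gene starts (557 of 4852 lie at a start codon), since a ready table of promoters was not used here. Feature coordinates are those of the deposited table. Nothing in the labels says that replicates with the same number shared a culture day.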

Additional observations from a re-analysis of the deposited data

How the results depend on the processing

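Without scaling, 153 calls were higher and 2020 lower at 15 min, 350 lower at 30 than at 15 min, and 25 list members higher and 142 lower, against 197 and 69 after scaling. With quantile normalization 490 were called higher at 15 min. With factors from all features the counts were 918 and 724. Leaving out single libraries gave 477 to 633 higher and 627 to 816 lower at 15 min, 1141 to 1293 and 788 to 979 from 15 to 30 min, and 0 to 53 and 0 to 19 for the difference between strains, where voom called 1 higher. Directions turned without scaling for *dak1* (−0.10), *utp10* (−0.023), *nog1* (−0.040), *tif6* (−0.066), *pht1* (−0.041), *hhf2* (−0.14), *fas2* (−0.077), *erg6* (−0.087), *pts1* (−0.032), *sty1* (−0.24), *urg1* (−0.20) and *fkbp39* (−0.34), and with quantile normalization for *fba1* (−0.050), *hhf2* (−0.046), *fas2* (−0.048), *erg6* (−0.047) and *fkbp39* (−0.24). Leaving out single libraries, *urg1* ranged from −0.16 (without replicate 1 of 15 min; −0.013 without replicate 2) to 0.583, and *fkbp39* from −0.058 (without replicate 3 of 15 min) to 0.224. The cause was not tested. Of 2722 values of named genes under the alternatives, 2499 kept direction and call, 184 lost the call and 19 gained it.

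Same-numbered libraries of 0 and 15 min deviated together by r = 0.38, 0.08 and 0.34 for replicates 1, 2 and 3. Over all times of the libraries labelled *atf21Δ* the median r was 0.21 for the same number and −0.08 for other numbers. The paper describes harvests before and after addition to the culture, so libraries with the same number may share a culture. The labels do not state such pairs, and the main fit took none into account. A replicate block gave 1115 calls higher and 977 lower at 15 min, among them all 758 and 849 of the 850 called without it, 1467 and 1205 from 15 to 30 min, and 0 for the difference between strains. Genes near the floor are limited by depth, since 3 reads on 1 kb stood for an RPKM of 0.174 to 0.301, which covers counting error only. The limma p-values at 15 min rest on the spread between replicates pooled over all 6 times of the 18 libraries labelled *atf21Δ*, shrunk towards a trend. They do not rest on the 6 compared libraries alone. A fit of those 6 kept 590 of the 758 calls higher and 640 of the 850 lower.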

Other observations

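Some changes at 15 min fell outside the gene lists and classes described above. By chromosome, 13.1%, 12.9% and 12.4% of the features tested on chromosomes I, II and III were called higher and 15.2%, 14.2% and 13.7% lower, so calls were spread over the nuclear genome. *SPAC6G9.15c* (protein Ebp1), which fell by 1.90 on the log2 scale, shares 1774 bases with *SPAC6G9.14* on the opposite strand, and that gene was called higher (0.50, adjusted p = 0.019, limma with Benjamini-Hochberg adjustment). *SPAC19D5.02c*, which overlaps the end of *pyp2* by 48 bases on the other strand, was called lower (−0.40, adjusted p = 0.029). These pairs were picked after their values were seen, and whether one transcript bears on the other was not tested.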
